A study of Mus musculus with 18 samples.

Results

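The 8 genes described here encode transcription factors of the pluripotency network. They are Pou5f1 (encoding Oct4), Nanog, the nuclear receptors Esrrb and Nr5a2, the grainyhead-family factor Tfcp2l1, the T-box factor Tbx3, and the Krüppel-like factors Klf2 and Klf5. They were chosen by name and matched by the symbols of the Ensembl identifiers in the authors' tables, and all 8 were present at each stage, out of 8202 genes measured at any stage. RNA came from mouse embryos of the CD1 strain, flushed from the oviduct or uterus, that were either Oct4 -/- (called null here) or Oct4 +/+ (wild type). Both genotypes were collected at E2.5 (E stands for embryonic day), then E3.75, then E4.5, 3 libraries each, which makes 18 libraries in 6 groups. The series title asks for genes that need Oct4 in vivo. What the null allele lacks is not described in the labels, and no treatment was given.

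In the mouse, Oct4 and Nanog are required in the embryo for the epiblast, the cells of the inner cell mass that go on to form the body. Oct4 often binds DNA as a partner of a SOX factor, at an octamer sequence next to a SOX site. Esrrb, Tfcp2l1, Tbx3, Klf2 and Klf5 are known to hold the naive state in mouse embryonic stem cells and in part replace one another. Some of them act downstream of LIF or WNT signals there. Nr5a2 is a nuclear receptor known to bind regulatory DNA of Pou5f1.

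Nanog, Pou5f1, Klf2 and Esrrb met the test for a difference between null and wild type embryos at E3.75, and their upstream sequences are printed here so that they can be compared. RefSeq start sites (build GRCm38.p6) were found for 6 of the 8 genes, giving 10 windows of 250 bases upstream of a start. Tbx3 and Klf5 had no entry. Each window was searched on both strands for 5 motifs: an octamer core (ATGCAAA), a SOX core (ACAATG), the octamer-SOX pair that joins them (TTTGCATNACAATG, the octamer core read on the opposite strand, any base, then the SOX core), a nuclear receptor half-site (AGGTCA) and a KLF core (CCACCC). Capitals mark every match, on either strand, and each sequence runs 5′ to 3′ on the gene's own strand, here the plus strand, ending at the base before the start. The windows are chr6:122707239-122707488 for Nanog, chr17:35505782-35506031 for Pou5f1, chr8:72318812-72319061 for Klf2 and chr12:86360867-86361116 for Esrrb, the first start listed for each.
Nanog: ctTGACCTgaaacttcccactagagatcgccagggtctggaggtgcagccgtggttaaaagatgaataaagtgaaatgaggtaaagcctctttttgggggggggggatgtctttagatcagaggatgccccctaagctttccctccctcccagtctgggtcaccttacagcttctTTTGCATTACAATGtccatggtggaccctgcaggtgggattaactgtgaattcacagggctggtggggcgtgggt
Pou5f1: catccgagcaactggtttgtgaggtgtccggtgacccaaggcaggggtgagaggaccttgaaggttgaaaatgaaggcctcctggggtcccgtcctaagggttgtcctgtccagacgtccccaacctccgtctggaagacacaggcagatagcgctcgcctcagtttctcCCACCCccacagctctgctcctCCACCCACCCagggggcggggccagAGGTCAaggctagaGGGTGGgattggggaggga
Klf2: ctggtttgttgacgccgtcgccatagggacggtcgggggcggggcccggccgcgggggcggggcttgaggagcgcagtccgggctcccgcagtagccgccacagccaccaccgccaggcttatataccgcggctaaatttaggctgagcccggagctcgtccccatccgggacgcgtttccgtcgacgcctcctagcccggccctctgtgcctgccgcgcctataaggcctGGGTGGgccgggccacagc
Esrrb: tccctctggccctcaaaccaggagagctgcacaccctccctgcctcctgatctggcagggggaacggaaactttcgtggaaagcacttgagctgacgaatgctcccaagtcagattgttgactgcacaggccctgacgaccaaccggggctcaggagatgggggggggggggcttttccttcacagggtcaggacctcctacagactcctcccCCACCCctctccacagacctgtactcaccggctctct

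The octamer-SOX pair lay 75 bases upstream of the Nanog start. It occurred in 2 of 32851 such windows of the whole RefSeq table (0.00609%), and both belonged to overlapping starts of Nanog. The octamer core alone was present in 4.12% of all windows and the SOX core in 10.7%. The pair holds both cores at a fixed spacing, so it must be rarer than either. Only this exact string was searched, so variant sites were not counted. The 2 Nanog windows hold the same site, so the share does not measure how particular such a pair is to Nanog. Pou5f1 carried 4 KLF cores, 80, 58, 54 and 19 bases upstream of its start, of which the middle pair overlap, and a nuclear receptor half-site at 33 bases. KLF cores also lay 19 bases upstream of Klf2 and 37 bases upstream of Esrrb, but 28.1% of all windows held one. A nuclear receptor half-site was present in 14% of windows, among them the far end of the Nanog window, 248 bases upstream. In the Tfcp2l1 window none of the 5 motifs was found. A match describes letters in the window, not binding.

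Levels are in CPM (reads of a gene per 1000000 reads counted in its library). Differences are null minus wild type on the log2(CPM + 1) scale, with the standard error (SE), and p-values come from limma with Benjamini-Hochberg adjustment over all genes of the stage, called at 0.05. Reads lie largely near the 3′ ends of transcripts. Null libraries held 364936 to 1922432 reads against 515745 to 1233635 in wild type libraries. Depth was not balanced between the genotypes, since the null median was the higher one at each stage. For E2.5 the median was 1917754 reads in null and 916720 in wild type libraries, without overlap. For E3.75 it was 1375610 (null) and 576078 (wild type), with overlap. For E4.5 it was 1314657 (null) and 543033 (wild type), also with overlap. The third library of each group was unusually close to a weighted mix of the first and second. At equal depth its variance about such a mix was 0.973 to 1.25 times sampling noise, against 1.11 to 2.8 times for first and second libraries. Main counts are therefore also given from the first 2 libraries of each group alone. Among markers, 8 of 9 listed for epiblast and inner cell mass were measured at E3.75, summing to 818 to 875 CPM in null and 837 to 991 CPM in wild type libraries, which overlap. At E4.5 the 8 measured markers of that list, which includes Nanog and Klf2, summed to 470 to 503 CPM in null and 758 to 854 CPM in wild type libraries, without overlap. All 8 had negative differences there, with a median of -0.48, and limma called none (3 at an unadjusted p under 0.05). At E3.75 trophectoderm markers (9 of 11) summed to 6362 to 7309 CPM in null and 7106 to 8336 CPM in wild type libraries. Most of that sum was Krt18, at 4407 ± 411 CPM in null and 5135 ± 652 CPM in wild type (SD, n = 3 each). Primitive endoderm markers (9 of 12) summed at E3.75 to 1478 to 1617 CPM in null and 1285 to 1444 CPM in wild type libraries. The endoderm sum is carried by Dab2, at 986 ± 53.2 CPM in null and 630 ± 42.4 CPM in wild type (SD, n = 3 each). At E3.75 Lamb1, Lama1, Sox17 and Pdgfra were called lower in null, while Dab2 and Col4a1 were called higher. The median difference of the endoderm list there was -0.98. The 3 of 11 listed markers of maternal cells measured at E3.75, the globins Hba-a1 and Hbb-bs and the myeloid gene Lyz2, summed to 203 to 424 CPM in null and 118 to 184 CPM in wild type libraries, and both globins were called higher in null. The part of these marker sums in the results was not tested.

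Pou5f1 was lower in null than in wild type embryos in every library of all 3 stages. At E2.5 the null libraries held 931, 1011 and 963 CPM, against 1809, 2093 and 1723 CPM in wild type. At E3.75 the values were 221, 286 and 266 CPM in null and 600, 380 and 547 CPM in wild type libraries. At E4.5 they were 142, 95.1 and 96.8 CPM in null and 274, 235 and 183 CPM in wild type libraries. The groups did not overlap at any stage, yet reads of Pou5f1 persisted in all 9 null libraries. Its difference was -0.95 (SE 0.083, adjusted p = 0.00105) at E2.5 and -0.96 (SE 0.13, adjusted p = 8.57e-05) at E3.75 in limma. These correspond to ratios, null over wild type, of 0.518 (95% interval 0.457 to 0.588) and 0.514 (0.424 to 0.623). At E4.5 the difference was as large, -1.05 (SE 0.20), but did not pass in limma after adjustment (unadjusted p = 0.000214, adjusted p = 0.125), where no gene of the stage did. It passed there in edgeR's quasi-likelihood test (adjusted p = 0.0264) and in DESeq2 (adjusted p = 0.000121). Without null library 1, the shallowest of all, it passed in limma too, at -1.24 (adjusted p = 0.0108). Since the 3′ reads may lie outside whatever the null allele lacks, these values do not check the genotype labels. Whole embryos were measured, so fewer cells of a type and less RNA per cell cannot be told apart in this or any later result.

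Nanog, the homeobox factor of the epiblast, was the one gene of the group called higher in null embryos, and only at E3.75. At E3.75 it reached 373, 327 and 347 CPM in null libraries, against 175, 240 and 221 CPM in wild type. Every null library lay above every wild type library, and the null mean was 349 ± 23.2 CPM, with 212 ± 33.5 CPM for wild type embryos (n = 3 each, SD). The difference was 0.73 (SE 0.12, limma adjusted p = 0.000566), a ratio of 1.66 (95% interval 1.40 to 1.97). Of 6648 genes at E3.75, it was the 204th highest by size of difference. The call held in all 17 alternatives tried, with differences in DESeq2 of 0.74 (adjusted p = 1.27e-05), in reads thinned to equal depth of 0.76 (adjusted p = 0.000249, limma) and with the first 2 libraries of each group of 0.77 (adjusted p = 0.00304, limma). The other called epiblast markers, Spp1, Tdgf1, Klf2, Fgf4 and Gdf3, fell in null embryos at the same stage, so that 1 of 8 measured markers was called higher and 5 were called lower, where 3.6% of all genes were called higher and 4.6% lower.

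At the other stages Nanog did not differ in the test. At E2.5 it had 227, 184 and 231 CPM in null and 182, 219 and 201 CPM in wild type libraries, which overlap, and the difference was 0.088 (SE 0.13, limma adjusted p = 0.737). At E4.5 the values were 41.1, 63.9 and 69.3 CPM in null and 64.5, 67.9 and 61.6 CPM in wild type libraries, again overlapping, with a difference of -0.19 (SE 0.22, limma adjusted p = 0.709). The 95% intervals of the ratio ran from 0.871 to 1.30 at E2.5 and from 0.627 to 1.23 at E4.5, so neither reaches the 1.66 of E3.75. Null library 1 of E4.5, the shallowest of all, was the lowest, from 15 reads of Nanog. In that library the measured maternal cell markers, Hba-a1, Hbb-bs and Vim, summed to 891 CPM. They summed to 137 to 317 CPM in the other null libraries and 123 to 235 CPM in wild type. At E2.5 the measured ones, Hba-a1, Hbb-bs and Alas2, summed to 985 to 1203 CPM in null and 949 to 1279 CPM in wild type libraries. Whether depth or maternal cells bear on the Nanog value was not tested. Without null library 1 of E4.5 the Nanog difference was 0.042. Mouse Nanog and Pou5f1 both have processed copies elsewhere in the genome, and how reads matching several places were counted is not given in the sources used here.

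**Figure D1:**
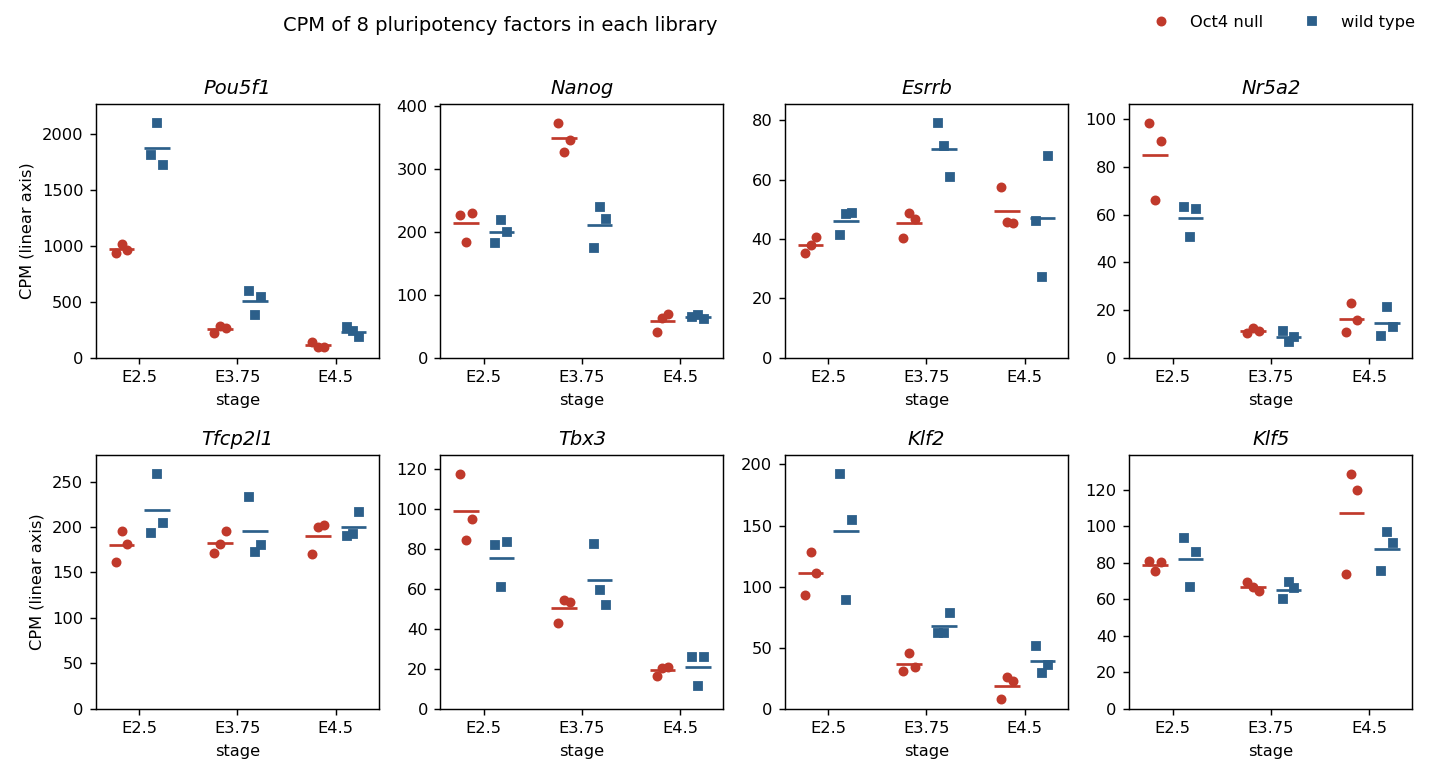
CPM of each gene (linear axis from 0) in the 3 Oct4 null libraries (red circles) and 3 wild type libraries (blue squares) of each stage, with the group mean as a bar. At E3.75 the null points of Nanog lie above the wild type points, and those of Pou5f1, Esrrb and Klf2 lie below, while Tfcp2l1 and Klf5 overlap at all 3 stages.

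The Krüppel-like factors Klf2 and Klf5 share a DNA-binding domain of the same type. Klf2 fell in null embryos at E3.75, with 31.2, 45.8 and 34.1 CPM in null libraries, against 62.1, 62.0 and 78.1 CPM in wild type. The groups did not overlap, and the null mean of 37.0 ± 7.73 CPM stood against 67.4 ± 9.29 CPM for wild type embryos (n = 3 each, SD). The difference was -0.86 (SE 0.21, limma adjusted p = 0.0124), a ratio of 0.552 (95% interval 0.410 to 0.744). This call was lost in 5 of 17 alternatives. It passed in edgeR's quasi-likelihood test (adjusted p = 0.0155) and in DESeq2 (adjusted p = 0.038). It did not pass in limma without null library 1 (adjusted p = 0.0686), null library 3 (0.059) or wild type library 3 (0.0845), nor with the first 2 libraries of each group (0.256) or in 1 fit of all 18 libraries (0.129). At E2.5 Klf2 had 93.3, 129 and 111 CPM in null and 192, 88.7 and 155 CPM in wild type libraries, so that wild type library 2 lay below all null libraries. The difference there was -0.33 (SE 0.25, limma adjusted p = 0.476), and -0.64 (limma adjusted p = 0.026) without that library. At E4.5 Klf2 stood at 8.22, 25.9 and 22.3 CPM in null and 51.6, 29.1 and 35.8 CPM in wild type libraries, without overlap. The lowest value rests on 3 reads, and the difference of -1.11 (SE 0.40, limma adjusted p = 0.232, unadjusted p = 0.0181) did not pass.

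Klf5, which is also expressed in trophectoderm, passed the test at no stage (limma adjusted p from 0.585 to 0.925). Its means were 78.8 ± 2.96 CPM in null and 82.2 ± 13.9 CPM in wild type embryos at E2.5, 67.0 ± 2.34 CPM in null and 65.3 ± 4.76 CPM in wild type embryos at E3.75, and 108 ± 29.3 CPM in null and 87.8 ± 11.1 CPM in wild type embryos at E4.5 (SD, n = 3 each). Null and wild type libraries overlapped at all 3 stages. The ratio at E3.75 was 1.03 (95% interval 0.802 to 1.32), an interval that lies above the 0.552 of Klf2 at the same stage. The difference between the 2 genes was not tested.

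Of the nuclear receptors, Esrrb was lower and Nr5a2 was not distinguishable in null embryos at E3.75. Esrrb had 40.5, 48.7 and 46.6 CPM in null libraries, against 79.0, 71.3 and 60.8 CPM in wild type, without overlap. Its difference was -0.62 (SE 0.19, limma adjusted p = 0.0443), a ratio of 0.650 (95% interval 0.495 to 0.853). That call stood close to the threshold and was lost in 14 of 17 alternatives, among them each of the 6 that left out 1 library (limma adjusted p from 0.0608 to 0.165), the first 2 libraries of each group (0.167), edgeR (0.0603) and DESeq2 (0.124). Esrrb was lower in null embryos in all 17. At E2.5 the null libraries of Esrrb, at 35.2 to 40.7 CPM, also lay below those of wild type, at 41.5 to 48.6 CPM, but the difference of -0.27 (SE 0.20, limma adjusted p = 0.459) did not pass. At E4.5 Esrrb ranged from 45.4 to 57.5 CPM in null and from 27.2 to 68.0 CPM in wild type libraries, and the wild type spread enclosed all null values (limma adjusted p = 0.826).

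Nr5a2 was measured well only at E2.5. There it had 98.4, 66.1 and 90.7 CPM in null libraries, against 63.3, 50.7 and 62.4 CPM in wild type. Every null library was higher, by a difference of 0.51 (SE 0.20) whose unadjusted p of 0.0233 became 0.172 after limma's adjustment over all genes. At E3.75 the gene averaged 11.3 ± 0.988 CPM in null and 8.92 ± 2.26 CPM in wild type libraries (SD, n = 3 each), from 5 to 17 reads a library. At E4.5 the averages were 16.5 ± 5.97 CPM in null and 14.5 ± 6.22 CPM in wild type libraries, from 4 to 30 reads. At this depth no difference was detectable, and the 95% intervals of the ratio, 0.691 to 2.29 at E3.75 and 0.613 to 2.14 at E4.5, cover both a rise like that at E2.5 and a fall.

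Tfcp2l1, a factor that acts downstream of LIF and WNT signals in mouse embryonic stem cells, passed the test at no stage. It averaged 180 ± 17.3 CPM in null and 218 ± 34.7 CPM in wild type embryos at E2.5, 183 ± 12.2 CPM in null and 195 ± 33.0 CPM in wild type embryos at E3.75, and 191 ± 17.9 CPM in null and 200 ± 15.1 CPM in wild type embryos at E4.5 (SD, n = 3 each). Libraries overlapped at each stage, and the ratio at E3.75 was 0.943 (95% interval 0.781 to 1.14). For Tbx3, a T-box factor tied to PI3K and LIF signals in those cells, libraries had 118, 84.8 and 94.9 CPM in null libraries at E2.5, against 81.8, 61.1 and 83.5 CPM in wild type. Its null libraries were all higher there, by 0.39 (SE 0.19, limma adjusted p = 0.263). At E3.75 the values were 42.8, 54.5 and 53.6 CPM in null and 82.7, 59.4 and 52.1 CPM in wild type libraries, which overlap, and the difference was -0.34 (SE 0.20, limma adjusted p = 0.334). At E4.5 Tbx3 averaged 19.3 ± 2.46 CPM in null and 21.1 ± 8.15 CPM in wild type embryos (SD, n = 3 each), from 6 to 28 reads a library.

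**Figure D2:**
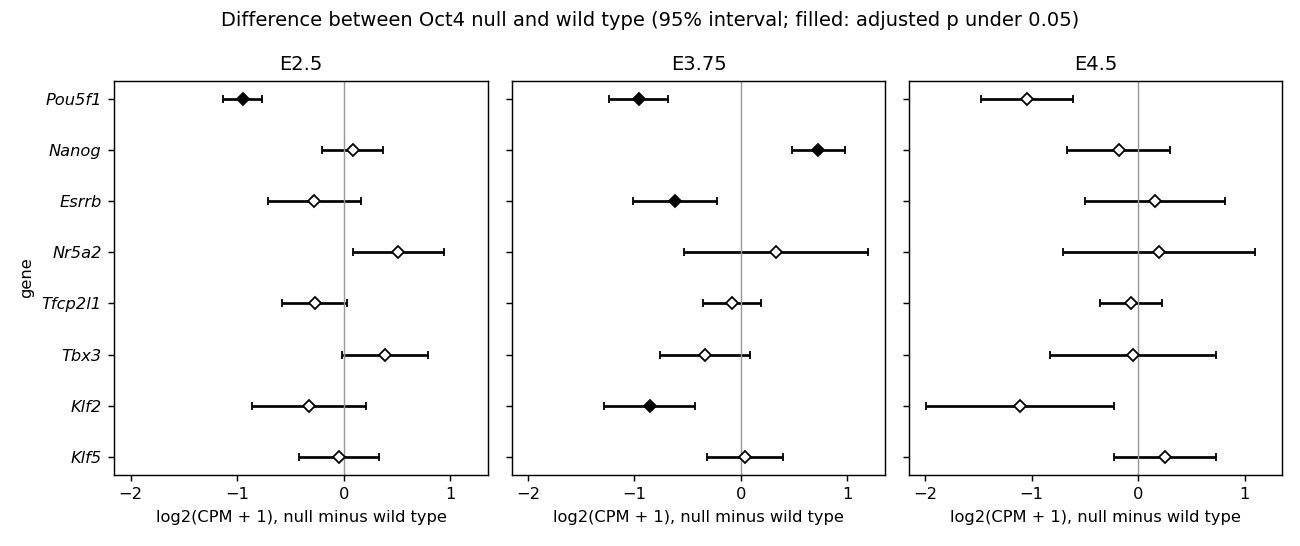
Difference of log2(CPM + 1), Oct4 null minus wild type, for each gene at each stage, with its 95% interval from limma (3 libraries per group). Filled diamonds passed the adjusted test: Pou5f1 at E2.5, and Pou5f1, Nanog, Esrrb and Klf2 at E3.75.

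Counts of calls among the 8 genes are set here beside those over all genes. At E2.5 limma called 1 of the 8 genes, Pou5f1, lower in null, where 0.593% of all 7082 genes were called, 0.409% higher and 0.184% lower. At E3.75 it called 4 of 8, 1 higher (Nanog) and 3 lower (Pou5f1, Klf2 and Esrrb), where 8.2% of 6648 genes were called, 3.6% higher and 4.6% lower. The split over all genes at E3.75 was 239 higher and 306 lower, and 287 higher and 216 lower with TMM scaling, under which Esrrb did not pass (limma adjusted p = 0.065). With the first 2 libraries of each group, 1 gene was called at E2.5 (Pou5f1) and 2 at E3.75 (Pou5f1 and Nanog). At E4.5 limma called 0 of 8 and 0% of all 6545 genes. At an unadjusted p under 0.05 the count there was 2 of 8 (Pou5f1 and Klf2) and 985 of all genes, while edgeR and DESeq2 each called 1 of the 8, Pou5f1, and 42 and 112 genes in all. Null and wild type libraries did not overlap for 4 of the 8 genes at E2.5, null being above in 2 and below in 2, where this held for 27.8% of all genes, 13.6% above and 14.1% below. At E3.75 it held for 4, of which null was above in 1 and below in 3, beside 27.2% of all genes, 11.4% above and 15.7% below. At E4.5 it held for 2, null being below in both, beside 22.2% of all genes, 12.2% above and 9.99% below. The median difference of the 8 genes was -0.16 at the first stage, -0.21 at the second and -0.057 at the third, beside -0.015, -0.039 and 0.059 over all genes. These counts and medians include Pou5f1, the gene named by the genotype, whose fall is not separate from the grouping. In limma it was the only member called at E2.5.

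**Figure D3:**
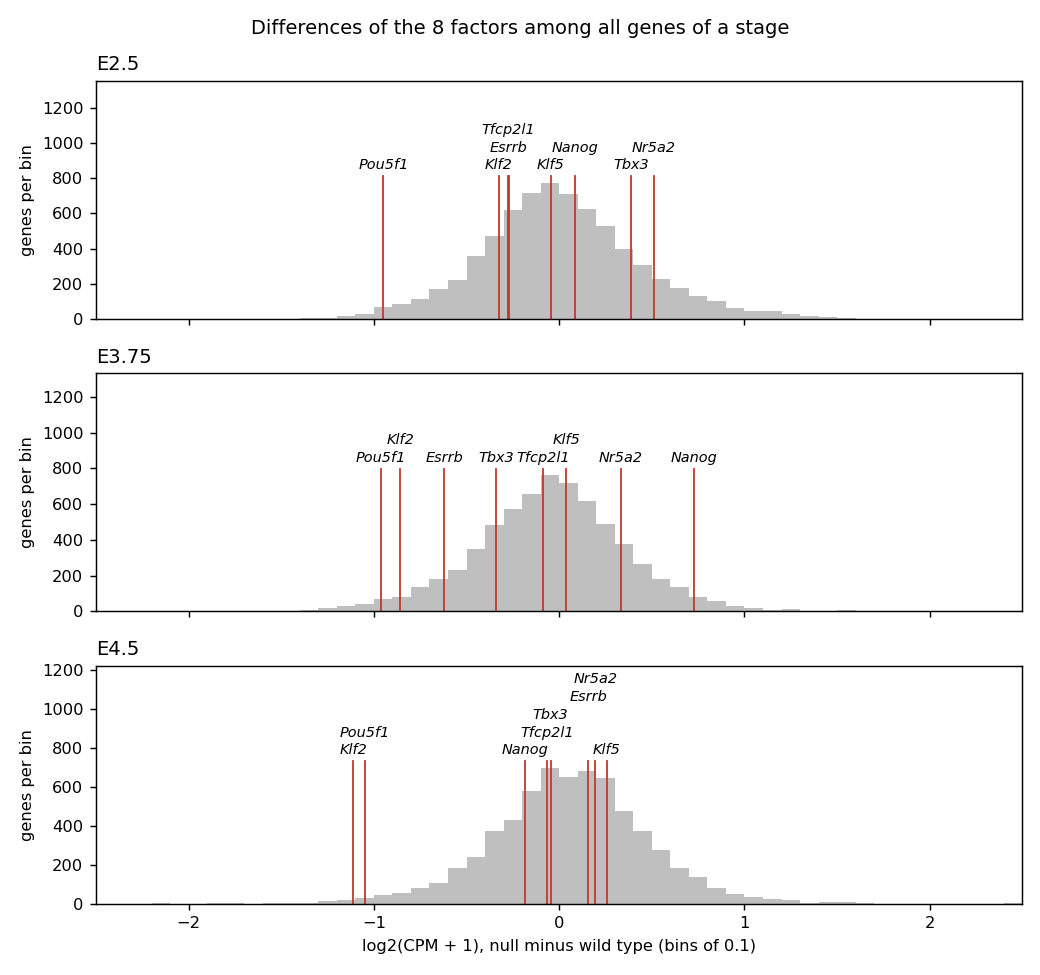
Number of genes per bin of 0.1 in the difference of log2(CPM + 1), Oct4 null minus wild type, for all genes of each stage (grey bars, axis shown from -2.5 to 2.5), with the 8 genes as red lines. Pou5f1 lies in the lower flank at each stage, and Nanog lies in the upper flank at E3.75, while Tfcp2l1 and Klf5 lie between -0.27 and 0.26.

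Whether a genotype difference changed with stage was tested over the 5430 genes shared by the 3 stages. Over all 18 libraries, the change of the Nanog difference from E2.5 to E3.75 was 0.64 (95% interval 0.16 to 1.12, unadjusted p = 0.0108, limma adjusted p = 0.189). From E3.75 to E4.5 its change was -0.91 (95% interval -1.39 to -0.43, unadjusted p = 0.000584, limma adjusted p = 0.0933). Under the alternatives the adjusted p of this second change ran from 0.0568 to 0.899. Limma and edgeR called none of the 8 genes in either contrast. Of all shared genes limma called 1.12% in the first and 0.0921% in the second. At an unadjusted p under 0.05 only Esrrb joined Nanog, with a change of 0.78 between E3.75 and E4.5 (95% interval 0.069 to 1.49, unadjusted p = 0.0328, limma adjusted p = 0.294). For Pou5f1 the changes were small, at -0.013 (95% interval -0.48 to 0.46) and -0.087 (-0.56 to 0.38). For Tbx3 the null libraries were all higher at E2.5 and overlapped with wild type at E3.75, and the change of -0.73 had an interval of -1.49 to 0.035 (limma adjusted p = 0.385).

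Ratios of genes within a library do not depend on how the library was scaled, and they show unequal change rather than which gene moved. At E3.75 the ratio of Nanog to Klf2 reads was 12, 7.14 and 10.2 in null libraries, against 2.82, 3.88 and 2.82 in wild type. Nanog over Esrrb was 9.23, 6.72 and 7.45 in null and 2.21, 3.37 and 3.63 in wild type libraries. Nanog over Pou5f1 was 1.69, 1.15 and 1.3 in null and 0.292, 0.632 and 0.403 in wild type libraries. In all 3 ratios the null libraries lay above the wild type ones without overlap. At E2.5 Nanog over Klf2 overlapped, at 2.43, 1.43 and 2.08 in null and 0.949, 2.47 and 1.3 in wild type libraries. Null libraries lay above wild type there for Nanog over Esrrb (4.84 to 6.44 against 4.13 to 4.52) and over Pou5f1 (0.182 to 0.244 against 0.101 to 0.117). At E4.5 Nanog over Esrrb overlapped, at 0.714, 1.4 and 1.52 in null and 1.4, 2.5 and 0.905 in wild type. Nanog over Pou5f1 also overlapped at E4.5 (0.288 to 0.715 against 0.235 to 0.337). For Nanog over Klf2 the null libraries of E4.5 lay above wild type (2.47 to 5 against 1.25 to 2.33). These 3 ratios were picked because of the E3.75 differences, so they are given without a test. Nanog over Pou5f1 also divides by the gene that the genotype names.

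**Figure D4:**
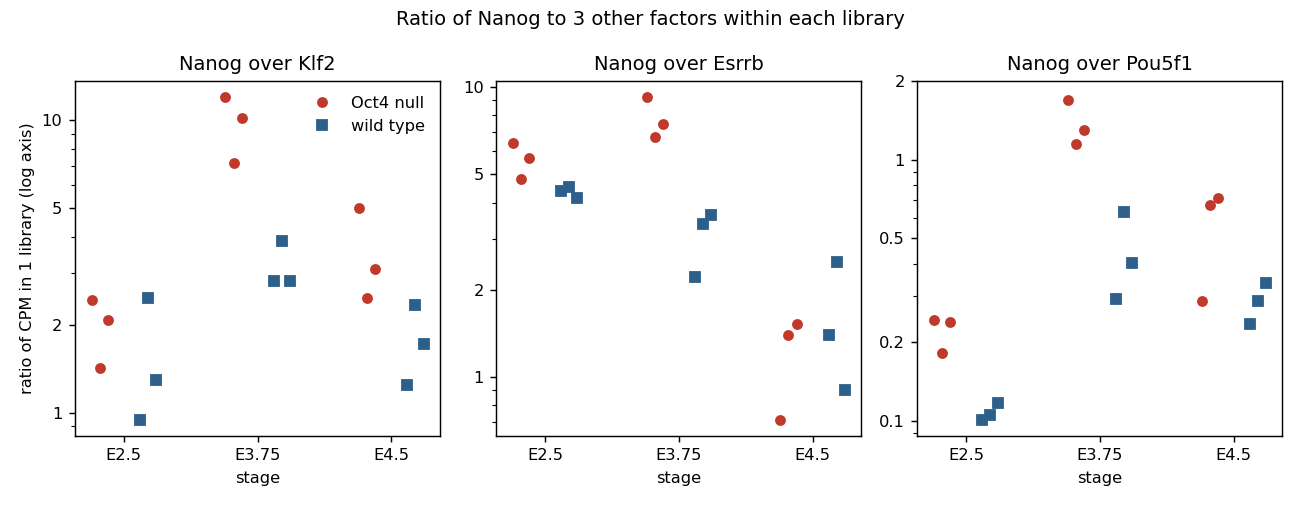
Ratio of Nanog CPM to Klf2, Esrrb and Pou5f1 CPM within each library (log axis) in Oct4 null (red circles) and wild type (blue squares) embryos at each stage. At E3.75 all null libraries lie above all wild type libraries in each panel, for example 7.14 to 12 against 2.82 to 3.88 for Nanog over Klf2.

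Across stages, levels were compared on CPM recomputed over the 5430 shared genes and are given as descriptions with no test, since each stage had been scaled on its own. Pou5f1 was highest at E2.5 and lowest at E4.5, 8.67-fold apart in null and 8.11-fold in wild type embryos, with no overlap between any neighbouring stages. Klf2 had the same order, E2.5 exceeding E4.5 by 5.89-fold in null and 3.73-fold in wild type embryos. Nr5a2 was highest at E2.5, exceeding E3.75 by 7.63-fold in null and 6.63-fold in wild type, and its E3.75 and E4.5 libraries overlapped. In null embryos Nanog at E3.75 was 1.61 times E2.5 without overlap, while in wild type it was 1.05 times E2.5 with overlap, and at E4.5 it was 5.93-fold below E3.75 in null and 3.25-fold below in wild type embryos, both without overlap. Tbx3 was 1.99-fold lower at E3.75 than at E2.5 in null embryos, without overlap, and 1.17-fold lower in wild type, with overlap. At E4.5 it was 5.13-fold below E2.5 in null and 3.58-fold below in wild type embryos. Esrrb was 1.18 times as high at E3.75 as at E2.5 in null embryos, where libraries overlapped, and 1.51 times in wild type, where they did not. Klf5 was 1.63 times as high at E4.5 as at E3.75 in null and 1.36 times in wild type embryos, and Tfcp2l1 overlapped between all stages, with ratios from 0.889 to 1.06.

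Other transcription factors of the network were called in the main limma test only at E3.75. Of 20 listed, 9, 10 and 11 were measured from the earliest to the latest stage, and limma called 0, 2 and 0, where it called 0.593%, 8.2% and 0% of all genes. At an unadjusted p under 0.05 there were 1, 5 and 3, where 20.4%, 22.8% and 15% of all genes lay under it. Zscan10, a zinc finger factor of embryonic stem cells, fell at E3.75 to 17.98 ± 2.15 CPM in null embryos, against 41.9 ± 3.50 CPM in wild type embryos (n = 3 each, SD), a difference of -1.18 (SE 0.25, limma adjusted p = 0.0052). It passed in all 15 alternatives that gave it an adjusted p. Zfp281, a zinc finger factor known to act in the exit from the naive state, rose to 28.8 ± 3.67 CPM in null embryos, against 13.7 ± 5.24 CPM in wild type, by 1.07 (SE 0.32, limma adjusted p = 0.0403), but lost its call in 8 of 15 alternatives. At E3.75 Zfp42 and Sall4 did not pass, Zfp42 at 226 ± 29.1 CPM in null and 255 ± 21.3 CPM in wild type, and Sall4 at 184 ± 9.17 CPM in null and 238 ± 56.3 CPM in wild type. For Utf1 all null libraries lay below wild type at each stage, by -0.56, -0.58 and -0.79. It passed at none (limma adjusted p from 0.126 to 0.221). At E4.5 Zscan10 had the lowest difference of all 6545 genes, -2.14, from 3.92 CPM in null and 21.1 CPM in wild type (limma adjusted p = 0.131). Differences over the list were positive for 4, 4 and 5 genes and negative for 5, 6 and 6, from the earliest to the latest stage. Sox2 and Klf4, both on this list, were absent from the genes measured at each stage.

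Among 23 genes of the LIF, BMP, WNT and FGF pathways that act on this network, 11, 14 and 12 were measured, and limma called none at any stage. At an unadjusted p under 0.05 the counts were 3, 4 and 2, beside 20.4%, 22.8% and 15% of all genes. Closest to the threshold were Gsk3b at E2.5, the kinase that marks beta-catenin for breakdown, at 61.3 ± 4.79 CPM in null and 26.1 ± 7.35 CPM in wild type embryos (difference 1.24, SE 0.24, limma adjusted p = 0.0512), and the FGF receptor Fgfr1 at E3.75, at 80.3 ± 4.86 CPM in null and 114 ± 15.4 CPM in wild type embryos (difference -0.49, SE 0.16, limma adjusted p = 0.0548). In edgeR and DESeq2 1 gene of this list was called at E2.5. The intermediary Stat3, which carries the LIF signal, had 64.2 ± 5.12 CPM in null and 65.3 ± 15.7 CPM in wild type embryos at E3.75. Etv5 had differences of -0.83, -0.79 and -1.23 over the stages (limma adjusted p = 0.255, 0.0999 and 0.17). Its null libraries lay below wild type without overlap at E3.75 and E4.5. Differences over this list were positive for 6, 5 and 4 genes and negative for 5, 9 and 8, from the earliest to the latest stage.

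Genes whose profile over the 6 group means was most like that of a member were found by the root mean square (RMS) difference of centred log2(CPM + 1) profiles, among 4936 genes. Nanog was nearest to Ypel2 (RMS difference 0.2), Gins3 (0.229) and Brix1 (0.248). Klf2 was nearest to Tonsl (0.121), Naa60 (0.222) and Trp53bp2 (0.258), and Trp53bp2 was also among the 3 nearest to Pou5f1 (0.435), after Bnip3l (0.349) and Slu7 (0.424). Tbx3 lay close to Alg13 (0.134), Nop58 (0.147) and Pcgf6 (0.163), and Nr5a2 to Drg2 (0.201), Tyk2 (0.208) and Slc6a6 (0.209). The poorest matches were those of Pou5f1, whose profile spans 4.08 on the log2 scale. Profiles of Esrrb, Tfcp2l1 and Klf5 span less than 1, and no like genes were sought for them.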

How the data were processed

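RNA of 18 libraries was extracted with a Picopure kit, reverse transcribed from oligo(dT) primers and amplified, per the labels' protocols. The authors deposited CPM, 1 table per stage, scaled separately over 7082, 6648 and 6545 genes. Each gene reached at least 10.3 CPM in 3 of 6 libraries. The submitters' processing notes name edgeR and mm9, and the aligner and the counting tool are not given in the sources. Wild type columns of E4.5 share 1 name, so these libraries are called A, B and C.

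Dividing by the worth of 1 read gave whole reads for 121650 of 121650 values (100%, tolerance 0.01 reads), which give the depth. limma 3.58.1 (R 4.3.3), with a variance trend, was fitted to log2(CPM + 1) per stage over all genes, two-sided. Because of the added 1, changes of low genes come out too small. Differences between stages used all 18 libraries. edgeR 4.0.16 and DESeq2 1.42.0 on recovered reads were alternatives. The tests were run on simulated reads with the same dispersion for every gene. This checked the code and not the error rates in these data. Intervals cover spread between libraries, which includes counting error and may be technical.

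All members are named. Other network and signalling genes are named when called, up to 6 per stage. Those given beyond that (Gsk3b, Fgfr1, Zfp42, Sall4, Stat3, Utf1, Etv5 and, at E4.5, Zscan10) were chosen after their values were seen. The 3 most alike genes needed a mean of at least 20 CPM, and a member a span of at least 1. Members, lists and motifs were chosen with earlier results of these data known.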

Additional observations from a re-analysis of the deposited data

How the results depend on the processing

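Settings varied were the libraries (each left out in turn, or the first 2 per group), the scaling (TMM, DESeq2 factors), the pseudocount (0.1, 5), a mean of at least 10 CPM, thinning of reads, the test (edgeR, DESeq2), a replicate block and 1 fit of all 18 libraries. Pou5f1 at E2.5 and E3.75 and Nanog at E3.75 passed under all 17. The causes of the changes below were not tested. At E2.5, limma called 42 genes, against 1 with the first 2 libraries, 99 with TMM, 93 with DESeq2 factors, 179 in edgeR, 238 in DESeq2, 139 with all 18 libraries and 1 to 773 without 1 library. At E3.75 it called 545, against 155 with the first 2, 307 in DESeq2, 213 with all 18 and 209 to 652 without 1. At E4.5 it called 0, against 2 with TMM, 1 with a pseudocount of 5, 12 in thinned reads, 42 in edgeR, 112 in DESeq2, 221 with all 18 and 0 to 120 without 1. Of the 8 genes, 1 to 2 passed at E2.5, 2 to 3 at E3.75 and 0 to 1 at E4.5 without 1 library, 2 at E3.75 with the first 2 or all 18, and at E4.5 1 in edgeR, 1 in DESeq2 and 2 with all 18. DESeq2 gave an adjusted p for 8, 7 and 4 of them. Other network factors called numbered 0 to 1, 1 to 3 and 0 to 1 without 1 library. At E3.75 they were 1 with the first 2, 1 with the block, 0 in DESeq2 and 0 with all 18, and at E4.5 1 in edgeR and 1 with all 18. Signalling genes called were 0 to 3, 0 to 2 and 0 to 0 without 1 library, 1 at E2.5 with TMM, DESeq2 factors, a pseudocount of 5, thinned reads, edgeR, DESeq2 or all 18, and 1 at E4.5 with all 18. Changes of the difference numbered 61 between E2.5 and E3.75, against 0 with the first 2, 26 with a pseudocount of 0.1, 115 in edgeR and 5 to 131 without 1 library. Between E3.75 and E4.5 they numbered 5, against 0, 10 with a pseudocount of 5, 9 in edgeR and 0 to 34.

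Small differences changed sign. Nr5a2 at E3.75 was -0.15 in thinned reads, Esrrb at E4.5 -0.13 in edgeR, and Tbx3 at E4.5 0.075 with the first 2 libraries and 0.021 in thinned reads. The change of the Pou5f1 difference from E2.5 to E3.75 was 0.079 with the first 2 and 0.011 in edgeR, and that of Tfcp2l1 from E3.75 to E4.5 was -0.054 with TMM and -0.059 in edgeR. Without 1 library, Klf5 ran from -0.19 to 0.056 at E2.5 and -0.017 to 0.086 at E3.75, Tfcp2l1 from -0.17 to 0.049 at E3.75 and -0.11 to 0.013 at E4.5, and at E4.5 Nanog from -0.33 to 0.042, Esrrb from -0.18 to 0.47, Nr5a2 from -0.067 to 0.50 and Tbx3 from -0.41 to 0.13. Changes from E2.5 to E3.75 ran from -0.21 to 0.12 for Pou5f1 and -0.017 to 0.23 for Klf5, and from E3.75 to E4.5 from -0.28 to 0.11 for Pou5f1, -0.40 to 0.17 for Nr5a2, -0.12 to 0.10 for Tfcp2l1, -0.068 to 0.47 for Tbx3 and -0.55 to 0.23 for Klf2.

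Same-numbered libraries showed no common deviation (correlations -0.003 to 0.121 at E2.5 and -0.031 to 0.01 at E3.75). With 3 libraries per group this cannot exclude that equal numbers mark pairs. With the numbers as a replicate block limma called 30 genes at E2.5 and 438 at E3.75, and 1 and 3 of the 8 genes, Esrrb being lost (adjusted p = 0.0622). No paired analysis was possible at E4.5 because its wild type columns carry no numbers. In the shallowest library 1 read is worth 2.74 CPM, which limits Nr5a2, Tbx3 and Klf2 at E4.5.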
